A study of Mus musculus with 5 samples.

Results

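The cerebral cortex builds its deep layers with a small set of transcription regulators, and 10 of them were followed here over the 5 arrays of the series: *Tbr1*, *Tle4*, *Foxp2*, *Sox5*, *Zfpm2*, *Nfia*, *Nfib*, *Fezf2*, *Bcl11b*, and *Ldb2*. They were chosen by name as known regulators or cofactors of L5 and L6 neurons, with earlier results of these data known. They are 10 of 19938 genes with a named probe set. All 10 had such a probe set, the group of array probes that measures a gene, and where a gene had several the 1 with the highest mean was used. The arrays were hybridized with RNA from retrogradely labeled projection neurons in the primary somatosensory cortex (S1) of ICR mice at postnatal day 24. There was 1 array for each of association L6b, association L5, association L2/3, callosal L5, and callosal L2/3 neurons. Association neurons were labeled by Green RetroBeads placed in the primary motor cortex (M1), and callosal neurons by beads placed in the contralateral S1 (cS1). The mice had earlier been electroporated in utero with a plasmid for the red fluorescent protein tdTomato, aimed at L2/3 neurons. Those with tdTomato in cell bodies of S1 were used. About 1000 labeled cells were cut out singly by laser microdissection for each array, and the labels do not give the number of mice behind an array. A callosal L6b group was not analysed here.

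Deep-layer neurons are specified by regulators that act on one another. In L6, *Tbr1* and its partners favor a corticothalamic identity and restrain the subcerebral program of L5, which *Fezf2* and its downstream gene *Bcl11b* promote. L6b holds the remaining neurons of the embryonic subplate (SP), which are among the earliest born of the cortex and share several of these regulators with L6 corticothalamic neurons.

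Values are log2 signals minus the median of all probe sets on the same array, so that 0 is the median signal and a difference of 1 is 2-fold. Each group had a single array, so no difference had a replicate check and no test was run. The number of arrays limits the precision of every value, and no difference, whether under or over 2-fold, has a measure of error. Differences of at least 2-fold are counted, which is a rule of size. Where association L6b was set against the rest, the difference had to reach 2-fold from each of the other 4 arrays, and the L6b enrichment is the difference between association L6b and the average of those 4. Counts over the members are given beside the share of 12632 genes treated in the same way, those at or above the median signal in 1 or more arrays. In pooled cells, fewer cells of a type and less RNA per cell cannot be told apart.

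Between arrays, Pearson correlations over all 35556 probe sets were 0.918 to 0.938, and the SD of the differences was 0.61 to 0.76 log2 over the 10 pairs. Deposited values were identical in at least 2 arrays for 60.6% of probe sets and for 9 of the 10 regulators, all but *Fezf2*. The L6b label was set beside marker genes chosen with earlier results of these data known, so they are no independent check. The L5 and L2/3 labels were not checked in this way, and the L5 genes given below were mixed between layers. All 9 L6b/SP genes were higher in association L6b than in each other array, 5 of them by at least 2-fold, with enrichments of 5.22 for *Cplx3*, a complexin gene, 3.65 for *Ccn2*, 2.65 for *Moxd1*, 2.48 for *Trh*, and 1.34 for *Nr4a2*. Of the 12632 genes, 21.3% were higher there by any amount and 1.26% by at least 2-fold. *Slc17a7*, the vesicular glutamate transporter gene, was at 3.98, 4.01, 3.84, 4.23, and 4.47 in association L6b, L5, and L2/3 and callosal L5 and L2/3. Of 7 glutamatergic neuron genes, however, 4 were at least 2-fold lower in association L6b (*Camk2a*, *Nrgn*, *Slc30a3*, and *Grin2b*; all but *Slc30a3* after quantile normalization), and of 10 GABAergic neuron genes 2 were (*Sst* and *Pvalb*). By the same rule 2.82% of the 12632 genes were lower. In association L6b, L5, and L2/3 and callosal L5 and L2/3, *Pvalb* was at -1.38, 4.41, 4.57, 4.52, and 2.26. In the same order *Sst* was at 2.45, 3.78, 4.23, 4.66, and 4.24, so both were well above the median in the other 4 arrays. The part of these glutamatergic and GABAergic genes in the L6b differences below was not tested.

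Of the 10 deep-layer regulators, 3 were at least 2-fold higher in association L6b neurons than in each of the other 4 arrays. They were *Tle4* (7.86-fold over the mean of the others), *Nfib* (3.38-fold), and *Nfia* (2.96-fold), and among all genes compared 1.26% met the same rule. The regulators were chosen with earlier results of these data known, so this is no independent comparison. The call of *Nfia* rests on the brighter of its 2 probe sets, since the enrichment was 0.16 in the other and 0.86 with both averaged. *Ldb2* was also highest in association L6b, below the 2-fold rule. *Fezf2* followed L5 in both projection classes, and *Tbr1*, *Sox5*, *Bcl11b*, *Zfpm2*, and *Foxp2* covered less than 2-fold over the 5 arrays. None of the regulators was at least 2-fold lower in association L6b than in each other array, against 2.82% of all genes compared. Counted by any amount, 6 of the 10 were higher in association L6b than in each other array (*Tle4*, *Nfib*, *Nfia*, *Ldb2*, *Foxp2*, and *Bcl11b*) and 2 were lower (*Tbr1* and *Sox5*). The shares among all genes were 21.3% higher and 30.5% lower. These counts by any amount move with the centering, because association L6b has the highest median and tied values then fall lower there. With the values as deposited the shares were 26.6% higher and 17.4% lower, with the regulators again at 6 and 2. The median L6b enrichment was 0.25 over the 10 regulators, with a range of -0.67 to 2.98, and -0.06 over all genes compared. All but *Foxp2* reached the array median somewhere, so 9 of the 10 are among the genes compared.

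**Figure D1:**
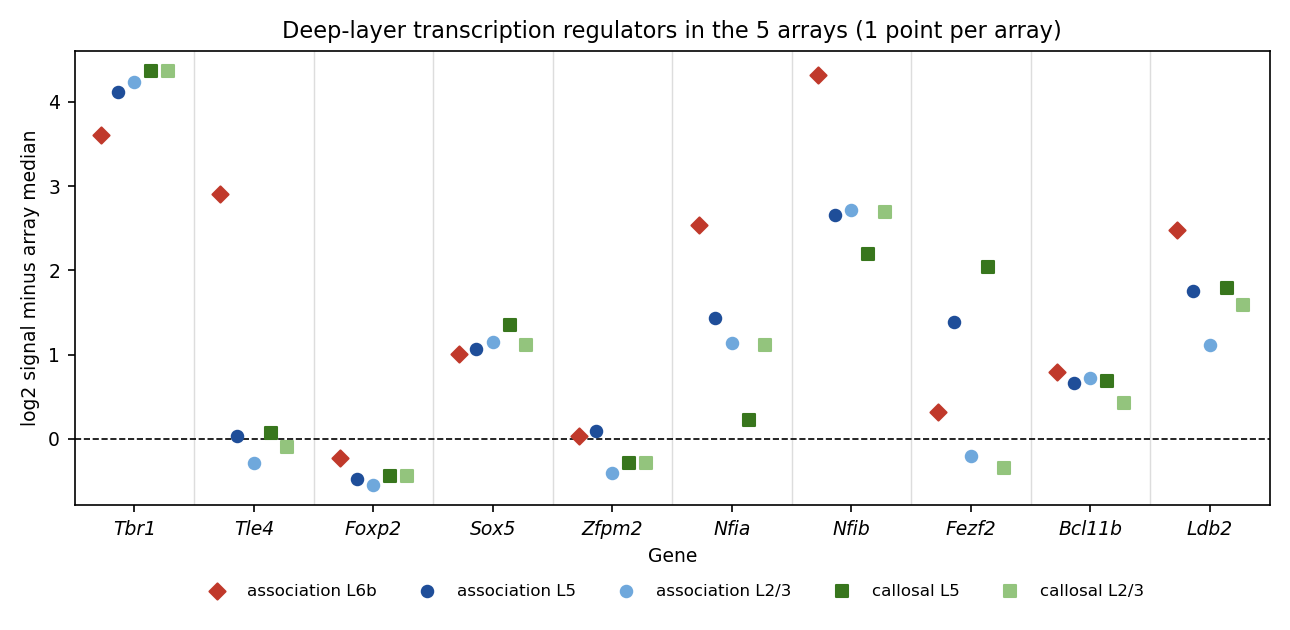
Signal of the 10 regulators in each array, as log2 signal minus the array median (vertical axis), with 1 point per array and the dashed line at the median. The association L6b point of *Tle4* is at 2.91 while the other 4 lie between -0.28 and 0.07, and the L5 points of *Fezf2* (1.39 and 2.04) lie above its other 3.

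*Tle4* encodes a corepressor of the Groucho family, which binds no DNA itself and is recruited by other factors, and it is a marker of L6 corticothalamic neurons. Its signal was 2.91 in the L6b, 0.04 in the L5, and -0.28 in the L2/3 association array, with 0.07 in the L5 and -0.09 in the L2/3 callosal array. Association L6b thus stood alone, and the other 4 arrays lay within 0.35 of each other around the array median. The L6b enrichment was 2.98, rank 30 of 12632 from the top, and the nearest array was 2.84 below. Against the same projection class, association L6b exceeded association L5 by 2.87 and association L2/3 by 3.19.

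The stretch upstream of *Tle4* is shown because this gene had the largest L6b difference among the regulators. It is the 250 bases before an annotated start, chr19:14598184-14598433 on the minus strand of GRCm38.p6, from RefSeq. Capitals mark CCAAT boxes (CCAAT, or ATTGG on the other strand) and GC boxes (GGGCGG, or CCGCCC on the other strand).
Tle4: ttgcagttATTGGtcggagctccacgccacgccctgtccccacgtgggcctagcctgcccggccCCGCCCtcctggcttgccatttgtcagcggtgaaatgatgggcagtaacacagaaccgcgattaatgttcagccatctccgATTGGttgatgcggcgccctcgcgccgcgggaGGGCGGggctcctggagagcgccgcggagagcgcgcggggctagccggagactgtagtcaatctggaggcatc
The window has a GC content of 65.2%, against a median of 52.4% over 32851 such windows, and holds 2 matches of each motif. A CCAAT box occurs in 33.8% of all windows and a GC box in 32.7%, counting both strands. There was no match for the NFI half-site TTGGC (41.5% of all windows), the T-box sequence GGTGTGA (3.33%), the SoxD sequence AACAAT (9.42%), the forkhead sequence TGTTTAC (3.17%), or the TATA box TATAAA (12.4%). A second *Tle4* window, at an annotated start inside the gene and not printed, held 1 match each of the NFI half-site, the SoxD sequence, and the GC box. TTGGC can overlap a CCAAT box on the other strand. These letter matches describe this window and no more.

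*Tbr1*, a T-box transcription factor of early-born neurons and a regulator of L6 identity, had its lowest signal in association L6b. It was at 3.60 for L6b, 4.12 for L5, and 4.24 for L2/3 association neurons, and 4.36 for L5 and 4.36 for L2/3 callosal neurons. The gene was well above the array median everywhere, in upper and deep layers alike. The enrichment was -0.67 (0.63-fold), and association L6b was 0.52 below the nearest array. Both callosal arrays had the same deposited value.

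*Foxp2*, a forkhead transcription factor of L6 corticothalamic neurons, was dim in all arrays. Its signal was -0.23 in L6b, -0.47 in L5, and -0.54 in L2/3 among the association arrays, and -0.44 in L5 and -0.44 in L2/3 among the callosal ones. Association L6b was the highest, by 0.21 over the nearest, and 3 of the other arrays shared a deposited value. No array reached the median, and at so low a signal a layer difference of *Foxp2* may not be detectable.

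*Sox5*, a SoxD transcription factor that times the production of deep-layer neuron types, was at 1.01 in the L6b, 1.07 in the L5, and 1.15 in the L2/3 association array, with 1.35 in the L5 and 1.12 in the L2/3 callosal array. These values spanned 0.34. *Sox5* was lowest in association L6b by only 0.06, and it was not the lowest there after scaling to the 75th percentile or after quantile normalization. *Zfpm2* (also called Fog2), a zinc finger cofactor of GATA factors found in L6 corticothalamic neurons, was at 0.03 for L6b, 0.09 for L5, and -0.40 for L2/3 association neurons, and -0.29 for L5 and -0.29 for L2/3 callosal neurons. It was near the median in the deep association arrays and a little below it in the others, with a range of 0.49.

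*Nfib* and *Nfia* encode nuclear factor I proteins, which bind DNA as dimers, act in deep-layer neurons and the subplate, and are also needed for making glia. *Nfib* was at 4.32 in L6b, 2.66 in L5, and 2.72 in L2/3 among the association arrays, and 2.19 in L5 and 2.69 in L2/3 among the callosal ones. It was highest in association L6b by 1.60 over the nearest array, and 3 of the other arrays had the same deposited value. The enrichment was 1.76 (rank 114).

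*Nfia* was at 2.54 in the L6b, 1.43 in the L5, and 1.14 in the L2/3 association array, with 0.22 in the L5 and 1.11 in the L2/3 callosal array. Association L6b was highest by 1.11, with an enrichment of 1.57 (rank 150). Callosal L5 stood apart at the low end, so that *Nfia* was 2.31-fold higher in association L5 than in callosal L5. By the brighter probe sets *Nfia* was the only regulator with a 2-fold projection difference in L5, where 3.49% of all genes compared were as much higher and 4.97% as much lower in association neurons.

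Each of these NFI genes has a second, dimmer probe set, which was compared after the values were seen. For *Nfib* it was at 4.54 for L6b, 0.76 for L5, and 2.38 for L2/3 association neurons, and 1.83 for L5 and 1.62 for L2/3 callosal neurons. Both *Nfib* probe sets were highest in association L6b, but the dimmer one had an enrichment of 2.89 and was lowest in association L5, 1.62 below association L2/3, where the brighter one differed by -0.06. Between association L5 and callosal L5 the dimmer *Nfib* probe set differed by -1.07 and the brighter one by 0.47. For *Nfia* the dimmer probe set was at 0.10 in L6b, -0.07 in L5, and 0.02 in L2/3 among the association arrays, and -0.04 in L5 and -0.13 in L2/3 among the callosal ones. It stayed at the array median with an enrichment of 0.16, so neither the L6b difference nor the L5 projection difference of *Nfia* appeared in both probe sets. With all probe sets of a gene averaged, the *Nfia* enrichment was 0.86 and the L5 projection difference 0.59.

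**Figure D2:**
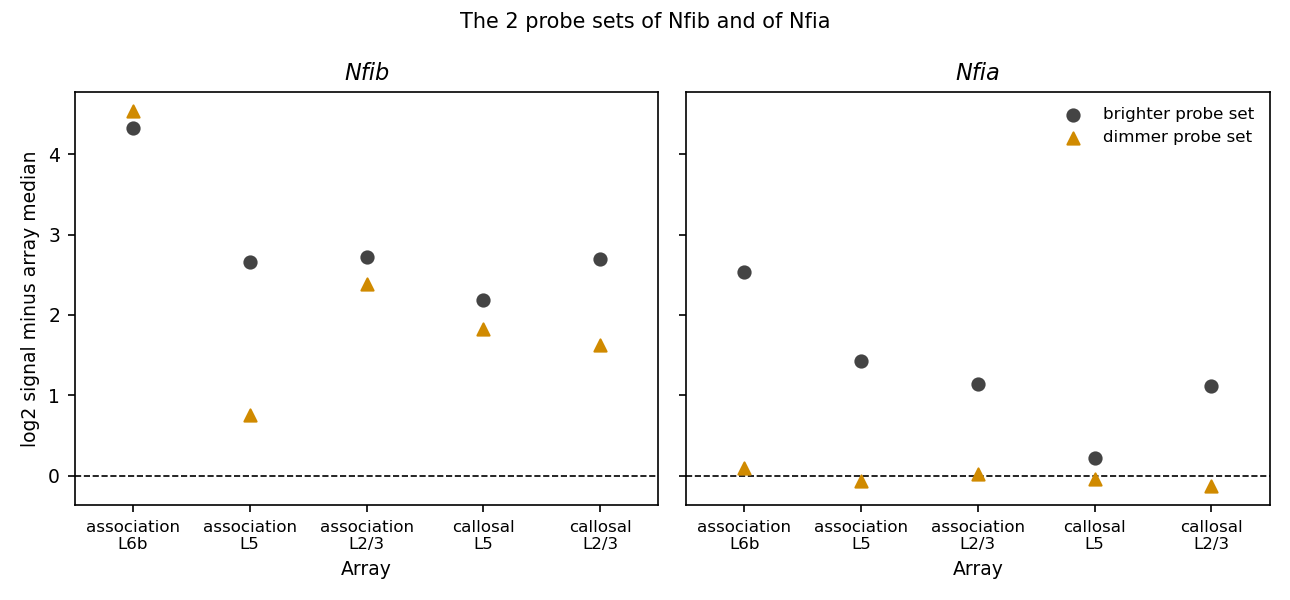
Both probe sets of *Nfib* (left) and *Nfia* (right) in each array, as log2 signal minus the array median. The *Nfib* probe sets are both highest in association L6b (4.32 and 4.54), whereas the dimmer *Nfia* probe set stays between -0.13 and 0.10 in all 5 arrays.

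Because NFI genes are also active in glia, glial markers are given beside them. The summed linear signal of 7 myelin genes, in units of the array median, was 52.7 in the L6b, 45.2 in the L5, and 10.8 in the L2/3 association array, with 24.5 in the L5 and 11.3 in the L2/3 callosal array. Of the 7, 4 were highest in association L6b, *Mog* and *Opalin* by at least 2-fold, and the median enrichment of the 7 was 1.30. Among all genes compared, 21.3% were highest there by any amount and 1.26% by at least 2-fold. The sum of 7 astrocyte genes was 34.9 in association L6b, below the 51.7 to 70.3 of the others. *Aldoc*, an aldolase gene, was the only one of them at least 2-fold lower in association L6b (enrichment -2.46), and without it the sum was 29.6 in association L6b, inside the 27.2 to 34.7 of the others. *Aldh1l1*, *Aqp4*, and *Gfap* were below the association L6b array median, while *Slc1a2* (4.35), *Aldoc* (2.41), *Gja1* (2.12), and *Slc1a3* (1.29) were above it. *Gja1* was the only 1 of the 7 that was highest in association L6b, with an enrichment of 0.36. The sum of 6 oligodendrocyte precursor genes was 8.14 in association L6b, within the 6.90 to 8.56 of the others, with enrichments of 0.37 for *Olig1* and -0.39 for *Olig2*. Of 6 microglia, 4 endothelial, and 4 meningeal fibroblast genes, 0 were at least 2-fold higher or lower there. The shares of all genes compared were 1.26% higher and 2.82% lower. The largest enrichments in these lists were -0.31 for *C1qa* and -0.09 for *C1qb*, 0.47 for *Cldn5* and 0.03 for *Vwf*, and -0.10 for *Lum* and 0.06 for *Col1a2*. The part of glial RNA in the *Nfia* and *Nfib* values was not tested.

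*Fezf2*, a zinc finger repressor that selects the subcerebral identity of L5 neurons, was the regulator with the largest difference between layers outside L6b. It was at 0.32 for L6b, 1.39 for L5, and -0.20 for L2/3 association neurons, and 2.04 for L5 and -0.34 for L2/3 callosal neurons. Both L5 arrays were high, both L2/3 arrays were below the median, and association L6b lay between them. The L5 signal was 3.01-fold that of L2/3 in association neurons and 5.21-fold in callosal neurons. Association L5 was 0.65 below callosal L5, and association L6b was 1.07 below association L5 and 0.52 above association L2/3. The L6b enrichment of -0.40 rested on callosal L5, since it was 0.04 without that array, and it is given no direction.

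*Bcl11b* (also called Ctip2), a zinc finger factor downstream of *Fezf2* that guides the axons of corticospinal neurons, did not follow it. Its signal was 0.80 in L6b, 0.66 in L5, and 0.72 in L2/3 among the association arrays, and 0.69 in L5 and 0.43 in L2/3 among the callosal ones. The values spanned 0.37, and 3 arrays had the same deposited value. *Bcl11b* is also expressed by GABAergic neurons, whose 10 marker genes summed to 22.5 in association L6b, below the 55.8 to 80.0 of the other arrays, in units of the array median; their part in the *Bcl11b* values was not tested.

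*Ldb2*, which encodes a LIM domain-binding cofactor and marks corticospinal neurons, was at 2.48 in the L6b, 1.76 in the L5, and 1.12 in the L2/3 association array, with 1.79 in the L5 and 1.59 in the L2/3 callosal array. It was highest in association L6b, by 0.69 over callosal L5, and lowest in association L2/3. The enrichment was 0.91 (1.89-fold, rank 351), and it was 1.02 after scaling to the 75th percentile and 1.12 after quantile normalization. Within association neurons the order was L6b, L5, L2/3, with steps of 0.72 and 0.64.

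Between layers, *Fezf2* was the only regulator that was at least 2-fold higher in L5 than in L2/3. It was so in association neurons, where 3.48% of all genes compared were, and in callosal neurons, where 4.08% were. By the brighter probe sets none of the 10 was at least 2-fold lower in L5. Among all genes, 7.36% were in association neurons and 4.52% in callosal neurons. The dimmer *Nfib* probe set, however, differed by -1.62 between association L5 and association L2/3, and averaging both gave -0.84. The callosal difference nearest to 2-fold lower was that of *Nfia*, at -0.89, with 0.09 in its dimmer probe set. The median difference of L5 minus L2/3 over the regulators was 0.18 in association neurons and 0.08 in callosal neurons, beside -0.06 and 0.00 over all genes compared.

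Between projection classes in L2/3, none of the 10 was at least 2-fold higher or lower in association than in callosal neurons, where 5.07% of all genes compared were higher and 3.48% lower. The largest L2/3 differences were -0.47 for *Ldb2* and 0.29 for *Bcl11b*. In L5, *Nfia* was at 1.21 and *Fezf2* at -0.65. The median over the 10 was -0.03 in both layers, beside -0.03 in L5 and 0.03 in L2/3 over all genes compared. Both L5 arrays enter this comparison and that between layers, and both L2/3 arrays are likewise shared. The *Nfia* differences of 1.21 between the L5 classes and -0.89 between the callosal layers both include its callosal L5 value of 0.22.

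**Figure D3:**
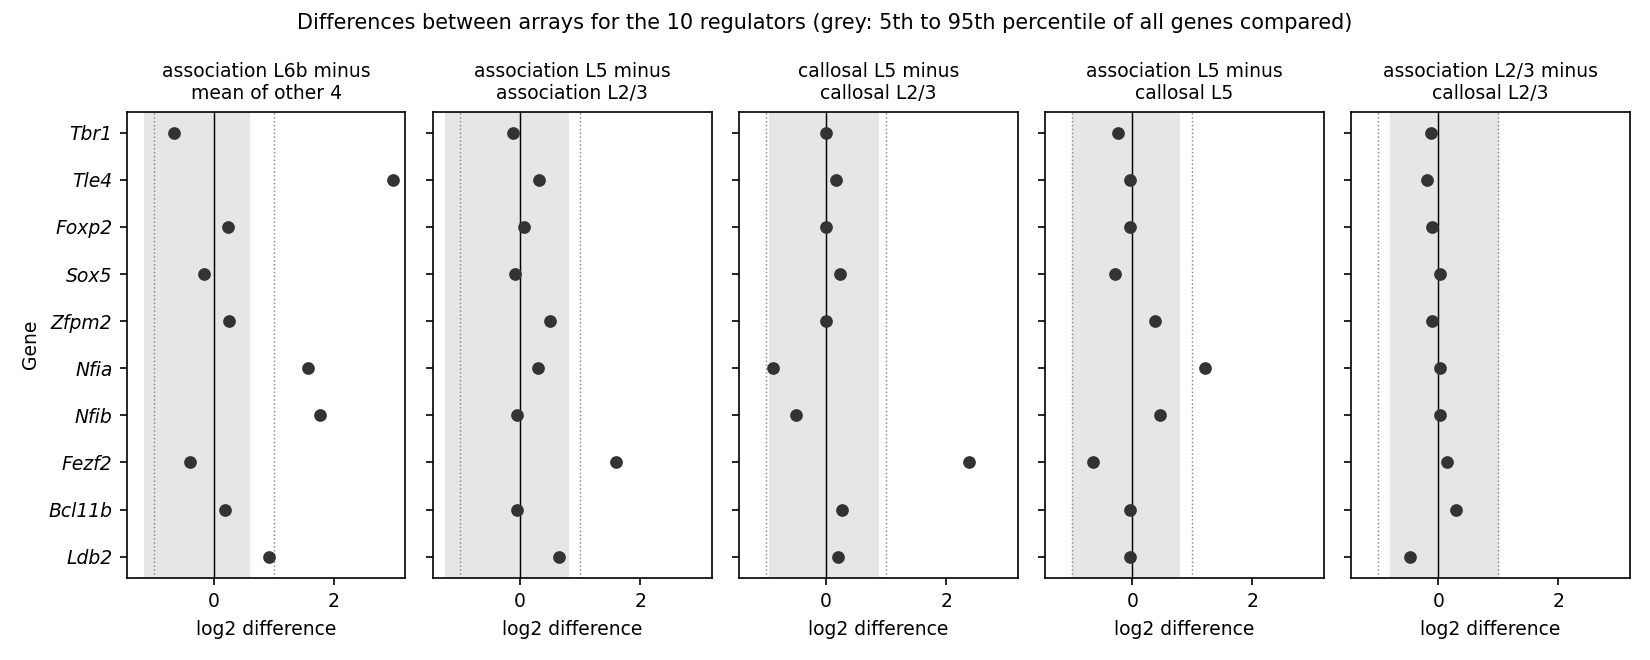
Log2 differences of the 10 regulators (horizontal axes, 1 point per gene) in 5 comparisons of arrays, with the 5th to 95th percentile of all genes compared in grey and dotted lines at 2-fold. *Tle4*, *Nfib*, and *Nfia* lie beyond 2-fold for association L6b, *Fezf2* for L5 over L2/3 in both classes, and *Nfia* for association over callosal L5.

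Lists of related genes give the surroundings of these values. Of 17 family relatives (other TLE, FOXP, FEZF, BCL11, SoxD, FOG, NFI, LDB, and T-box genes), 0 were at least 2-fold higher or lower in association L6b than in each other array under the scaling used and 3 others tried. Under the scaling used, only 1.26% of all genes compared were higher and 2.82% lower by this rule, so 0 of 17 is near these shares. Their median enrichment was -0.03, and up to 0.07 under the other scalings. *Nfix*, the relative of *Nfia* and *Nfib*, was at 4.12, 3.70, 4.18, 4.15, and 4.15 in association L6b, L5, and L2/3 and callosal L5 and L2/3, with an enrichment of 0.08. *Tle1* and *Tle3*, which encode corepressors related to *Tle4*, had enrichments of -0.30 and -0.13. *Foxp1*, a relative of *Foxp2* found in several layers, was at -0.38. *Ldb1*, the relative of *Ldb2*, was at 2.41 for L6b, 2.35 for L5, and 2.83 for L2/3 association neurons, and 1.88 for L5 and 3.82 for L2/3 callosal neurons, which made it 1.94 log2 lower in callosal L5 than in callosal L2/3.

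Regulators of upper-layer and callosal neurons were mostly lower in association L6b. Of 10 with a named probe set, 6 were lower in association L6b than in each other array under each of the scalings (*Cux1*, *Pou3f2*, *Rorb*, *Mef2c*, *Lhx2*, and *Lmo4*), and the median enrichment of the 10 was -0.61. Of all genes compared, 30.5% were lower in this way under the scaling used and 15.4% to 23.6% under the others. *Pou3f2* (also called Brn2), a POU factor of upper-layer neurons, was at -0.17 in L6b, 1.71 in L5, and 2.54 in L2/3 among the association arrays, and 1.5 in L5 and 2.76 in L2/3 among the callosal ones. It was the only one of this list at least 2-fold lower in association L6b, with an enrichment of -2.30, and it did not meet the rule when its probe sets were averaged. Among all genes compared, 2.82% were lower by this rule. *Cux1*, a homeobox gene of upper layers, and *Mef2c*, a MADS box gene, were lower in association L5 than in association L2/3 by 1.15 and 1.07 log2. They were the 2 of this list at least 2-fold lower, beside 7.36% of all genes compared. Between callosal L5 and L2/3 they differed by -0.97 and -0.40, under 2-fold, while *Pou3f3*, *Lhx2*, and *Lmo4* were higher in L5. The list's median L5 minus L2/3 difference was -0.44 in association and 0.0 in callosal neurons.

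Among 13 partners and reported targets of the regulators, *Hdac1* was the only one at least 2-fold higher in association L6b, as were 1.26% of all genes compared. *Hdac1* encodes a histone deacetylase that works with Groucho corepressors and with *Bcl11b*. It was at 2.95 in the L6b, 1.27 in the L5, and 1.41 in the L2/3 association array, with 1.10 in the L5 and 0.90 in the L2/3 callosal array, an enrichment of 1.78, and its other probe set had an enrichment of 1.36. The related *Hdac2* was at -0.13. *Grin2b*, an NMDA receptor subunit gene and a reported target of *Tbr1*, was the only one at least 2-fold lower, at 1.13 for L6b, 2.34 for L5, and 3.13 for L2/3 association neurons, and 2.37 for L5 and 2.39 for L2/3 callosal neurons. Lower by this rule were 2.82% of all genes compared.

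Other genes of L6a corticothalamic neurons, the class that *Tle4*, *Tbr1*, and *Foxp2* mark, had a median enrichment of 0.30 over 10 genes. Of these, 8 were higher in association L6b than in each other array, beside 21.3% of all genes compared. After 75th percentile scaling 9 were, beside 36.9% of all genes compared. *Hs3st4* (2.16) and *Sla* (1.66) were higher by at least 2-fold, as were 1.26% of all genes compared. *Sla* was at 0.44 in association L6b and below the array median in each other array, at -1.4 to -1.13. *Hs3st4*, a heparan sulfate sulfotransferase gene, was at 2.79 in L6b, 0.73 in L5, and 0.40 in L2/3 among the association arrays, and 0.86 in L5 and 0.51 in L2/3 among the callosal ones, so that, as for *Tle4*, association L6b alone stood out. *Ntsr1*, the neurotensin receptor gene that marks L6a corticothalamic neurons, was below the array median in all 5 arrays, with an enrichment of 0.31. *Thsd7b* was likewise below the median in all 5 arrays, with an enrichment of 0.15, and both genes are among the 8.

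Other genes of L5 subcerebral neurons, the class of *Fezf2*, *Bcl11b*, and *Ldb2*, had a median enrichment of -0.04 over 12 genes, and up to 0.07 under other scalings. In association neurons 3 of them were at least 2-fold higher in L5 than in L2/3 (*Pcp4*, *S100a10*, and *Rbp4*) and 2 lower (*Cntn6* and *Etv1*). In callosal neurons 4 were higher (*Pcp4*, *S100a10*, *Opn3*, and *Etv1*) and 2 lower (*Cntn6* and *Rbp4*). The shares of all genes compared were 3.48% higher and 7.36% lower in association neurons, and 4.08% and 4.52% in callosal neurons. *Pcp4*, a calmodulin-binding protein gene, thus matched *Fezf2* in being higher in L5 of both classes, by 2.13 in association and 2.81 in callosal neurons, but at 6.16 it was also high in association L6b. *Cntn6*, a contactin gene, was at least 2-fold higher in association L6b than in each other array, as were 1.26% of all genes compared, with an enrichment of 2.39.

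**Figure D4:**
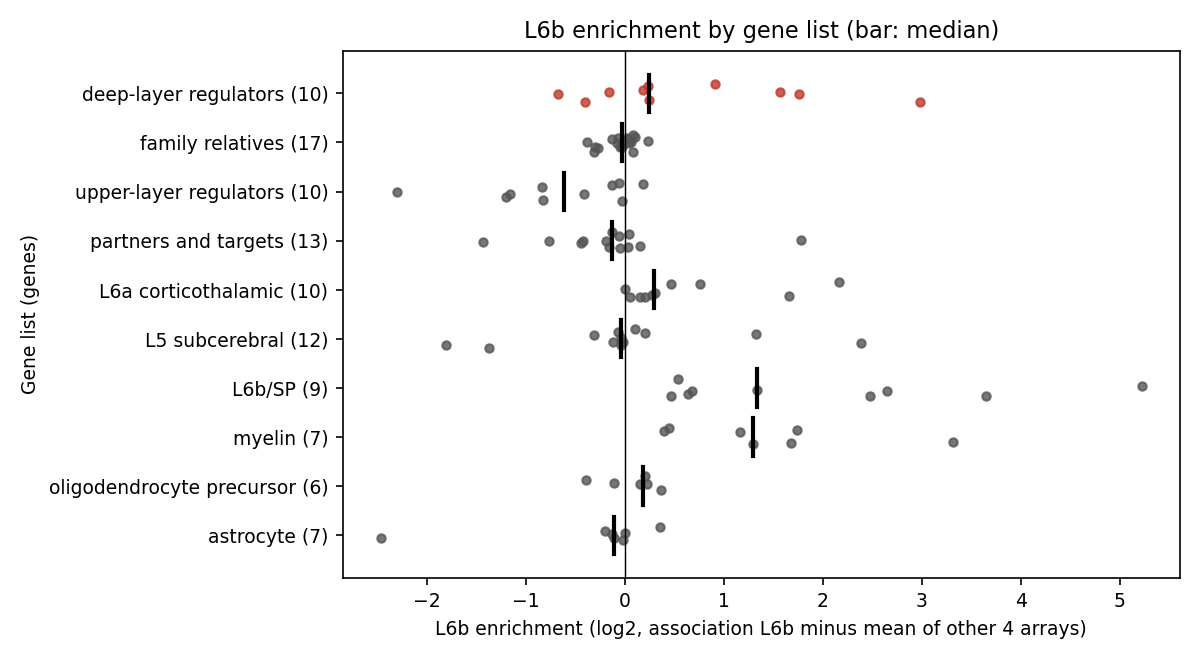
L6b enrichment (log2 difference of association L6b from the average of the remaining 4 arrays) of the genes in each list, with 1 point per gene, the number of genes in brackets, and a bar at the median. The 10 regulators spread from -0.67 to 2.98 around a median of 0.25, wider than their 17 family relatives, which have a median of -0.03.

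The genes whose profiles were nearest to the 3 most variable regulators were searched among 11723 genes, by the root mean square (RMS) difference over the 5 arrays after each gene's mean was removed. Nearest to *Tle4* were *Smyd3* (0.05 log2), *Cidea* (0.12), and *Kynu* (0.13). *Smyd3*, a gene of a SET and MYND domain methyltransferase, was at 3.50 in the L6b, 0.56 in the L5, and 0.38 in the L2/3 association array, with 0.65 in the L5 and 0.45 in the L2/3 callosal array. Nearest to *Fezf2* were *Umps* (0.15), *Dkkl1* (0.27), and *Nyx* (0.29), and nearest to *Nfia* were *Sergef* (0.15), *Mrps28* (0.16), and *Izumo4* (0.17).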

How the data were processed

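RNA of the 5 cell groups was amplified and hybridized to Affymetrix arrays. The values used are the authors' log2 signals for 35556 probe sets in a single deposited table. Affymetrix Expression Console is credited in the submitters' processing notes. The summarization method, the software version, and whether the global normalization of the methods is already in the values are not given in the sources used. The deposited log2 values range from 1.11 to 14.2, and 0 per-sample columns were left unused.

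The platform annotation gave 1 symbol for 21789 probe sets and several for 1621, and the other 12146 are unnamed here. Some listed genes are not reported here. The array medians subtracted were 5.80, 5.77, and 5.71 for association L6b, L5, and L2/3 and 5.74 for both callosal arrays. The probe set with the highest mean stood for a gene, and genes below the median on all 5 arrays were left out of the background. Fold rules replaced tests, since each group has 1 array. The steps were tested on simulated data.

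The text names all 10 regulators; of the other lists, genes at least 2-fold apart in association L6b or, failing these, the 2 with the largest enrichment, at most 4 a list; and the 3 nearest profiles of 3 regulators. *Nfix*, *Tle1*, *Tle3*, *Hdac2*, *Cux1*, *Mef2c*, *Rorb*, *Lhx2*, *Lmo4*, *Pou3f3*, *Ntsr1*, *Nr4a2*, *Slc17a7*, the named L5 genes other than *Cntn6*, and the astrocyte genes other than *Aldoc* were named after their values were seen. *Thsd7b* was also named after its values were seen. The regulators and lists were chosen with earlier results of these data known. Promoter windows came from a RefSeq table (GRCm38.p6), in which 6 of the regulators were matched with 7 windows. Of these the *Tle4* window upstream of the gene is printed, since the others lie within annotated gene spans. Alternatives were the values as deposited, 75th percentile and quantile scaling, averaged probe sets, a 1.5-fold rule, other filters, and leaving out each other array. Counts by any amount under other scalings and the astrocyte sum without *Aldoc* were added after the data were seen. Python 3.11.15, pandas 2.3.3, numpy 2.4.6, and matplotlib 3.10.9 were used.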

Additional observations from a re-analysis of the deposited data

How the results depend on the processing

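The 3 regulators at least 2-fold higher in association L6b (*Tle4*, *Nfia*, and *Nfib*) were the same under the values as deposited, 75th percentile scaling, and quantile normalization. With probe sets averaged, *Tle4* and *Nfib* remained. Under a 1.5-fold rule 4 regulators were higher in association L6b, 2 were higher in association L5 than in association L2/3, 1 was lower in callosal L5 than in callosal L2/3, and 1 was lower in association L5 than in callosal L5. With probe sets averaged, 0 were at least 2-fold higher in association L5 than in callosal L5. With the dimmer probe set, chosen after the data were seen, the *Nfia* difference between association and callosal L5 was -0.03. The cause was not tested, except that a lower fold rule admits smaller differences. The median L6b enrichment of the regulators was 0.21 to 0.35 under the alternatives. The shares of all genes higher and lower in association L6b by any amount were 36.9% and 15.4% after 75th percentile scaling and 28.9% and 23.6% after quantile normalization, with 6 and 1 regulators in both. Scaling to the 75th percentile moved the median enrichment of all genes compared to 0.05. Of 200 single-gene differences under these scalings and averaged probe sets, 183 kept their side of the 2-fold rule and did not change sign. These include differences of 0 at the start and small ones that became 0, which hold no direction. Of the rest, 2 fell under 2-fold, 2 passed it, and 13, all under 2-fold, changed sign. Of 40 enrichments with 1 of the other arrays left out, 39 kept their direction and side of the 2-fold rule; the exception was *Fezf2* without callosal L5. The share of all genes at least 2-fold higher in association L6b was 0.818% with no filter and 2.22% with a filter at the 75th percentile, and the share lower was 1.79% and 5.35%. No paired analysis was possible because each group has 1 array and no test was run. Signals near the array median, as for *Foxp2* and *Zfpm2*, limit what differences could be seen.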
